A study of Mus musculus with 2 samples.

Results

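The 8 keratins Krt5, Krt14, Krt15, Krt17, Krt1, Krt10, Krt8 and Krt18 were followed through single-cell transcriptomes of mouse embryos, 8 of the 32285 genes counted. Each was taken by its symbol, and its UMIs (unique molecular identifiers, each marking 1 captured RNA molecule) were summed over cells called epithelial because Epcam, Trp63 and Perp together reached 3 UMIs, and over other cells sorted by marker limits. This epithelial rule took 1023 of 22868 kept cells.

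The study bred mice with a loxP-flanked SRSF2 gene, a Cre recombinase driven by the Myf5 promoter and the Rosa26-LSL-tdTomato (tdT) reporter, and asked what happens to Myf5-derived cells when SRSF2, a splicing factor, is lost. Trunks and limbs of E14 embryos were digested with collagenase and dispase, and tdT-positive cells were sorted and profiled with 10x Genomics 3′ chemistry. There was 1 library of each genotype: SRSF2f/f/Myf5-Cre/tdT (both SRSF2 alleles loxP-flanked) and SRSF2f/w/Myf5-Cre/tdT (1 loxP-flanked and 1 wild-type allele, the littermate control), with Cre and tdT in both. How many embryos each library holds is not given in the sources used here. The sort keeps any cell in which the Myf5-driven Cre was once active, so the epithelial cells here are the tdT-sorted ones and not a sample of the whole epidermis.

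The 2 libraries went against their titles. Srsf2 stood at 219 CPM (UMIs of the gene over those of all genes, scaled to 1000000 UMIs, 95% exact Poisson interval 217 to 221) in the library labelled f/f and at 153 (151 to 155) in the one labelled f/w. Which exons are deleted is not given in the sources used here, and the 3′ reads count only the end of the transcript, so Srsf2 alone is a limited check. Cells over the muscle limit and no other numbered 1984 and 103. The run summary deposited with the library labelled f/f also carries the name WT, and that of the one labelled f/w the name KO. The titles were kept as names, every direction below refers to "the library labelled" f/f or f/w, and which genotype was higher cannot be drawn from it. With no replicate of either group no test was made, and all intervals cover counting error only. Kept cells numbered 12523 and 10345, with medians of 10751 and 9480 UMIs. The libraries share 74 barcodes, of which 4 belong to cells of the epithelial rule.

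Keratins build the intermediate filaments of epithelial cells as obligate pairs of a type I and a type II chain. In stratified skin, Krt5 (type II) pairs with Krt14 (type I) in the basal layer, and Krt1 with Krt10 once a cell leaves that layer. Krt8 and Krt18 are the pair of simple epithelia and of the early surface ectoderm and periderm, Krt15 is a type I keratin of basal cells, and Krt17 a type I keratin of hair-forming and stressed epithelium. In GRCm38, the type II genes lie together on chromosome 15, with Krt5 at 101707070 to 101712898, Krt1 at 101845426 to 101850794 and Krt8 at 101996698 to 102004482, all on the minus strand, and Krt18 next to Krt8 at 102028180 to 102032027 on the plus strand. The other type I genes lie on the minus strand of chromosome 11, with Krt10 at 99385254 to 99389364, Krt15 at 100131758 to 100135928, Krt14 at 100203162 to 100207548 and Krt17 at 100256217 to 100261029. An antisense gene, Gm11940, overlaps Krt10 and had 72 UMIs in all kept cells.

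The bases before the starts of Krt5 and Krt10 are shown because Krt10 was the keratin with the smallest share of its UMIs in epithelial cells, while Krt5 had 94.5% and 92.3% of its UMIs there in the libraries labelled f/f and f/w. RefSeq windows (GRCm38.p6) were found for 5 of the 8 genes. Capitals mark TATAAA and CANNTG, searched on both strands in the 250 bases before the start.
Krt5 (chr15:101712906-101713155, minus strand): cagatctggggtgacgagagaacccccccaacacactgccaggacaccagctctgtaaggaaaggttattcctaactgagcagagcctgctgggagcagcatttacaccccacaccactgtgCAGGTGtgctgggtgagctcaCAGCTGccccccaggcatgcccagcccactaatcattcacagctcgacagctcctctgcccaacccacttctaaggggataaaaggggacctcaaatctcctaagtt
Krt10 (chr11:99389365-99389614, minus strand): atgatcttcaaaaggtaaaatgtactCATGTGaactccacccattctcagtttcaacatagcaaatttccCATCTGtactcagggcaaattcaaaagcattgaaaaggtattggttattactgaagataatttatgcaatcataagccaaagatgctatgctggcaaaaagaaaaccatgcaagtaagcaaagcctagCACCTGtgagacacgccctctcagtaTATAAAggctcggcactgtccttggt
Krt10 holds TATAAA with its first base 26 bases before the start, and Krt5 holds no match. Of 32851 windows of this length, 12.4% hold TATAAA and 66.2% hold CANNTG. Krt5 holds CAGGTG at 128 and CAGCTG at 107 bases before the start, and Krt10 CATGTG at 224, CATCTG at 180 and CACCTG at 52. These are letter matches only.

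The label of the cells was checked first. The library labelled f/f had 357 cells of the epithelial rule, 2.85% of its kept cells (exact binomial interval 2.57 to 3.16), and the library labelled f/w 666 (6.44%, 5.97 to 6.93). The name epithelial went against the data for most of them: 587 of the 1023 (57.4%) also reached 10 UMIs of the cartilage genes Col9a1, Acan and Matn1, and 815 (79.7%) reached the limit of some other type. Those 587 cells had Epcam at 198 CPM (184 to 213) and 242 (230 to 254), and Perp at 101 (91.4 to 112) and 126 (118 to 135), in the libraries labelled f/f and f/w. Trp63, the master factor of stratified epithelium, was at 1.08 (0.296 to 2.78) and 2.40 (1.37 to 3.90). Their Col9a1 stood at 2306 and 1845 CPM.

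Keratins were nearly absent from most of the 587. Krt14 had a UMI in 9 of 218 of these cells (4.13%) in the library labelled f/f and in 45 of 369 (12.2%) in the one labelled f/w, and the 5 richest cells held 97.0% and 67.7% of those UMIs. Sfn, a stratifin of squamous epithelium, was at 40.4 and 95.8 CPM there, against 1291 and 1765 in cells with both Epcam and Trp63. The cells with at least 1 UMI of both Epcam and Trp63, chosen after the data were seen, numbered 64 and 92. They are called the Epcam and Trp63 cells below. Of these 156 cells, 98 (62.8%) also reached the limit of some other type. The chondrocyte limit was reached by 11 (7.05%) and the mesenchymal one (Pdgfra, Dcn and Lum at 5 UMIs) by 80 (51.3%). Their median depth was 17577 UMIs in the library labelled f/f and 27012 in the one labelled f/w, against 14492 and 15354 over all cells of the rule. Over all kept cells the medians were 10751 and 9480.

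**Figure D1:**
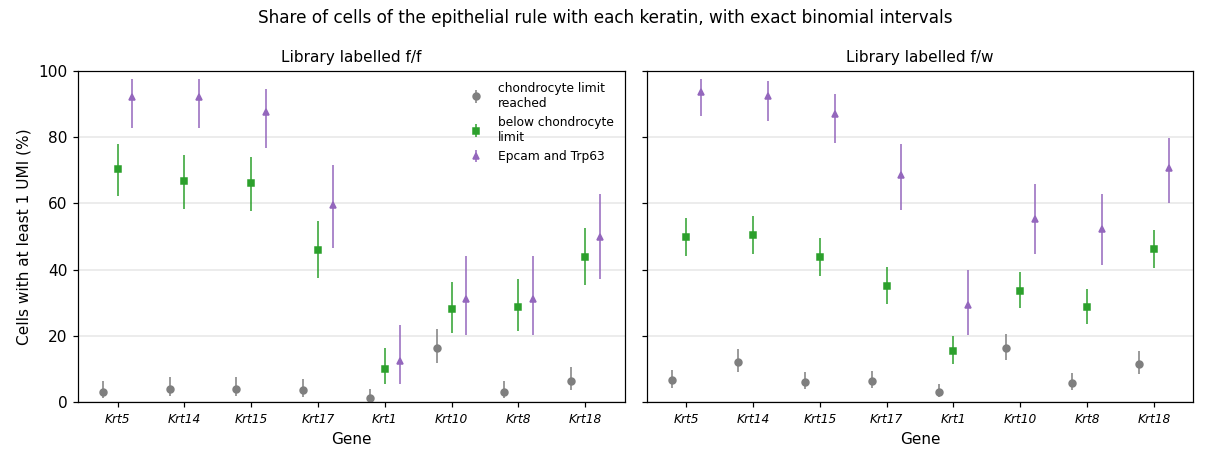
Share of cells with at least 1 UMI of each keratin (percent, exact binomial intervals) in cells of the epithelial rule that reached the chondrocyte limit (grey circles), in those below it (green squares) and in the Epcam and Trp63 cells (purple triangles), in the libraries labelled f/f (left) and f/w (right). Krt14 sits at 4.13% and 12.2% in the grey cells and at 92.2% and 92.4% in the purple ones.

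Krt5, Krt14 and Krt15 marked nearly all Epcam and Trp63 cells of both libraries. Krt5, the basal type II chain, had a UMI in 59 of 64 cells (92.2%, 82.7 to 97.4) and in 86 of 92 (93.5%, 86.3 to 97.6). Its level was 872 CPM (822 to 924) in the library labelled f/f and 873 (838 to 909) in the one labelled f/w, so the 2 intervals overlap over nearly their whole width. Krt14, its type I partner, stood at 1815 CPM (1742 to 1889) and 2729 (2667 to 2793). The Krt14 intervals lie apart, with the library labelled f/w higher by a log2 ratio of 0.59 (0.52 to 0.66). Krt15 went the other way, at 746 CPM (699 to 794) and 561 (532 to 590), a log2 ratio of -0.41 (-0.53 to -0.29). In these summed UMIs the 3 basal keratins thus did not share a direction between the libraries. The mean over cells of CPM, taken over all cells of the rule, gave log2 ratios of -0.34 for Krt5, 0.07 for Krt14 and -0.78 for Krt15. By that measure the higher Krt14 of the library labelled f/w was nearly gone.

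The basal pair was seen together in single cells. Of the 64 Epcam and Trp63 cells labelled f/f, 57 held both Krt5 and Krt14, 2 held only Krt5, 2 only Krt14 and 3 neither. Of the 92 labelled f/w, 83 held both. Krt15 was rarely seen without Krt14, which nearly all of these cells held: 98.2% and 98.8% of Krt15 cells also held Krt14. Median UMIs per cell were 14 and 20.0 for Krt5 and 31.0 and 63.5 for Krt14, with up to 122 and 328 Krt14 UMIs in a single cell.

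Krt17 was found in fewer of these cells. It had a UMI in 38 of 64 (59.4%, 46.4 to 71.5) and in 63 of 92 (68.5%, 58.0 to 77.8). Its level was 181 CPM (159 to 206) in the library labelled f/f and 282 (263 to 303) in the one labelled f/w, a log2 ratio of 0.64 (0.43 to 0.86). Nearly every Krt17 cell was also a Krt14 cell, 94.7% and 95.2%, close to the Krt14 share over all Epcam and Trp63 cells. The 5 richest cells held 49.2% and 37.1% of its UMIs.

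Of the suprabasal chains, Krt1 was carried by a minority in both libraries and Krt10 by a minority in the library labelled f/f. Krt1 had a UMI in 8 of 64 cells (12.5%, 5.55 to 23.2) and in 27 of 92 (29.3%, 20.3 to 39.8). Krt1 stood at 85.1 CPM (70.0 to 103) and 115 (103 to 129), but in the library labelled f/f 96.4% of its UMIs came from 5 cells, so that level describes those cells. Krt10 had a UMI in 31.2% (20.2 to 44.1) and 55.4% (44.7 to 65.8) of cells, at 120 CPM (102 to 141) and 180 (165 to 197). In cells over the muscle limit and no other, 24.9% and 30.1% also had a Krt10 UMI, at median depths of 14650 and 15887 UMIs. A single Krt10 UMI thus does not mark a cell as suprabasal. Krt10 was held by 87.5% and 85.2% of Krt1 cells, against 31.2% and 55.4% of all Epcam and Trp63 cells. Krt1 was held by 35.0% and 45.1% of Krt10 cells, against 12.5% and 29.3% of all.

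The simple pair Krt8 and Krt18 was found beside the basal keratins. Krt8 had a UMI in 20 of 64 cells (31.2%, 20.2 to 44.1) and in 48 of 92 (52.2%, 41.5 to 62.7), at 169 CPM (147 to 193) and 210 (193 to 228). Krt18 had one in 32 of 64 (50%, 37.2 to 62.8) and in 65 of 92 (70.7%, 60.2 to 79.7), at 259 CPM (232 to 288) and 295 (274 to 316). The 5 richest cells of the library labelled f/f held 85.9% of its Krt8 and 75.1% of its Krt18. Of the Krt8 cells, 90.0% and 97.9% also held Krt5. This is close to the Krt5 share over all Epcam and Trp63 cells given above, so it shows no link of Krt8 with Krt5. Krt18 was held by 85.0% and 95.8% of the Krt8 cells, against 50% and 70.7% of all these cells.

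Since depth differed between the libraries, each cell was also thinned to 2000 UMIs. Krt14 was then seen in 84.4% and 83.7% of the Epcam and Trp63 cells, Krt5 in 76.6% and 66.3%, and Krt15 in 67.2% and 53.3%. Krt8 was seen in 12.5% and 21.7%, Krt18 in 18.8% and 21.7%, Krt10 in 7.81% and 17.4% and Krt1 in 6.25% and 9.78%. Krt18, at 50% and 70.7% before thinning, thus came close in the 2 libraries at equal depth.

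Which keratins go with which was looked at by splitting the Epcam and Trp63 cells at 5 UMIs of Krt1 plus Krt10 and at 5 UMIs of Krt8 plus Krt18. This split uses 4 of the keratins and was chosen after the data were seen, so it is a description. Neither pair was reached by 49 of 64 cells labelled f/f and 33 of 92 labelled f/w. Krt8 and Krt18 alone were reached by 10 and 40 cells, Krt1 and Krt10 alone by 3 and 10, and both pairs by 2 and 9. Median depth was 17076 and 19048 UMIs where neither pair was reached and 25410 and 28896 in the Krt8 and Krt18 cells, so the split follows depth in part.

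The basal keratins were lower in cells with Krt1 and Krt10 alone. Krt14 stood at 761 CPM (567 to 1001) in the 3 cells labelled f/f and 1329 (1211 to 1455) in the 10 labelled f/w, against 2139 (2043 to 2238) and 2857 (2727 to 2992) in cells with neither pair. Krt15 stood at 328 (206 to 497) and 293 (239 to 356), against 800 (741 to 861) and 621 (561 to 686). Krt5 stood at 537 (376 to 744) and 566 (490 to 651), against 927 (864 to 993) and 957 (882 to 1036). All 3 were lower in both libraries, with intervals that lie apart, though these leave out the spread between the few cells. In the 2 and 9 cells with both pairs, Krt5 was at 1052 (820 to 1330) and 640 (562 to 726). It was thus not lower there in the library labelled f/f. Krt14, at 1248 and 1726, and Krt15, at 421 and 472, were lower there than in cells with neither pair.

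Krtdap, Sbsn and Lgals7, late epidermal genes that the split did not use, were high in the same cells. Krtdap, a secreted protein of differentiating keratinocytes, stood at 5658 CPM (5102 to 6257) and 2621 (2455 to 2796) in the Krt1 and Krt10 cells, against 29.9 (19.5 to 43.8) and 306 (264 to 352) in cells with neither pair. Sbsn, which encodes suprabasin, stood at 761 (567 to 1001) and 786 (696 to 884), against 10.3 (4.73 to 19.6) and 30.0 (18 to 46.8). Lgals7 stood at 1239 (987 to 1536) and 1560 (1432 to 1696), against 284 (249 to 321) and 620 (560 to 684). Lor, a further late gene, stood at 59.7 (16.3 to 153) and 45.5 (26.0 to 74.0), against 11.5 (5.51 to 21.1) and 15.8 (7.56 to 29.0). The Lor intervals overlapped in both libraries. Krtdap in Krt8 and Krt18 cells was 80.1 (51.3 to 119) and 143 (123 to 165). In these cells Krtdap was thus far below its level in Krt1 and Krt10 cells of either library.

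The basal keratins were not uniformly lower in cells with Krt8 and Krt18. Krt5 stood at 747 CPM (653 to 852) in the 10 cells labelled f/f and 982 (929 to 1038) in the 40 labelled f/w. Krt14 stood at 1234 (1112 to 1367) and 3337 (3238 to 3438), and Krt15 at 754 (659 to 859) and 629 (587 to 674). Against the cells with neither pair, Krt5 and Krt14 were lower in the library labelled f/f, with intervals apart. Krt14 was higher in the library labelled f/w, where the Krt5 intervals overlapped. The Krt15 intervals overlapped in both libraries. No Krt8 UMI was found in the Krt1 and Krt10 cells, where the split itself kept it low.

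**Figure D2:**
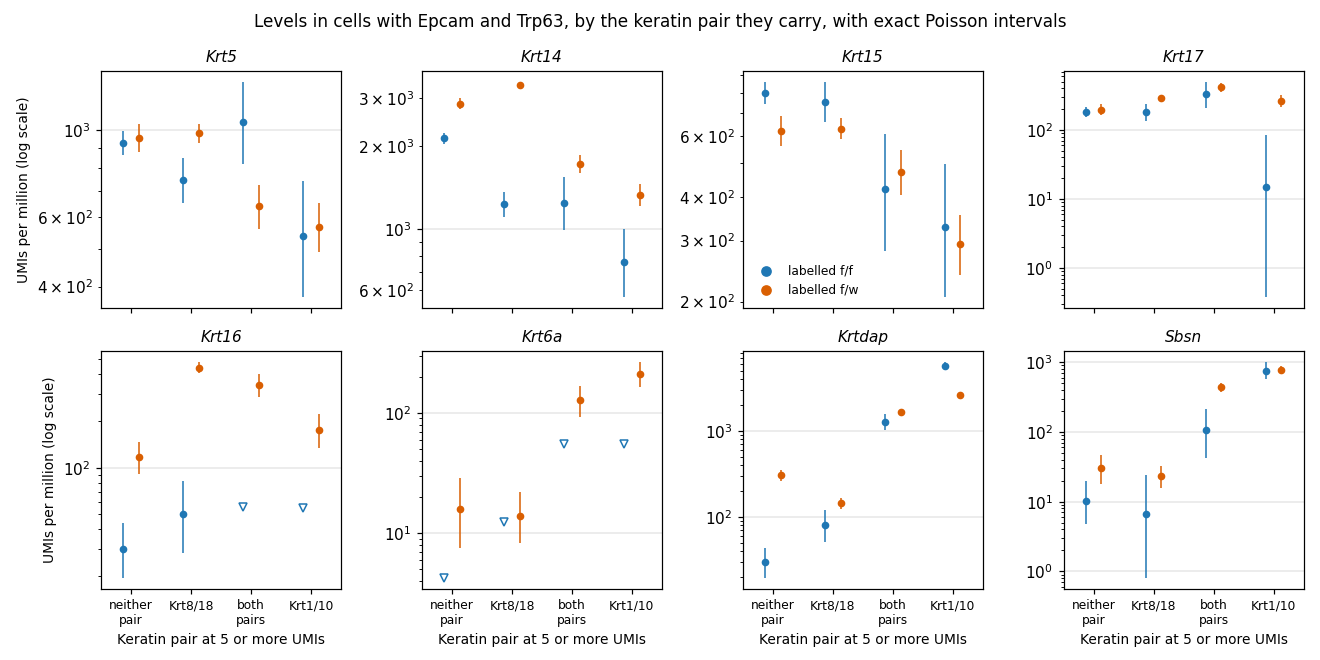
CPM (log axis, exact Poisson intervals) of 8 genes in Epcam and Trp63 cells of the libraries labelled f/f (blue) and f/w (orange), split by whether Krt8 plus Krt18, Krt1 plus Krt10, both or neither reached 5 UMIs. Open triangles stand at the upper limit where no UMI was found. Krt14 is lowest and Krtdap and Sbsn are highest in the Krt1 and Krt10 cells of both libraries, and Krt16 in the library labelled f/w is highest, at 441, in the Krt8 and Krt18 cells.

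Krt16 and Krt6a, from a list of 18 other keratins, were far apart between the libraries in the Epcam and Trp63 cells. Krt16, a type I keratin of stressed and hair-forming epithelium, stood at 31.4 CPM (22.6 to 42.7) in the Epcam and Trp63 cells labelled f/f and 314 (293 to 336) in those labelled f/w, a log2 ratio of 3.32 (2.87 to 3.81). It had a UMI in 12 of 64 and 53 of 92 of them. Krt6a, a type II keratin known as its partner, had no UMI in the 64 cells and 150 in the 92, or 56.2 CPM (47.6 to 66), at least 24.4-fold higher when the library labelled f/f is set at 3 counts over its 64 cells. A single cell held 56 of these 150 UMIs and the 5 richest held 74.0%, and without that cell Krt6a stood at 35.5 CPM (28.7 to 43.4). Over all cells of the rule the gaps were smaller. Krt16 stood there at 41.9 CPM (36.8 to 47.4) and 114 (108 to 120). Krt6a stood at 2.49 (1.39 to 4.11), from 15 UMIs, and 16.9 (14.7 to 19.3).

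Within the library labelled f/w, Krt16 was highest in the Krt8 and Krt18 cells, at 441 CPM (405 to 478), and stood at 340 (284 to 404) in cells with both pairs, 174 (133 to 223) in the Krt1 and Krt10 cells and 117 (91.6 to 146) in cells with neither pair. Krt6a stood at 211 (165 to 264) in the Krt1 and Krt10 cells, at 127 (93.3 to 168) in cells with both pairs, and at 13.8 (8.19 to 21.8) and 15.8 (7.56 to 29.0) in the Krt8 and Krt18 cells and those with neither. Single cells weighed heavily: without the richest cell, which held 56 of 74 Krt6a UMIs, the Krt1 and Krt10 cells had Krt6a at 54.1 (32.1 to 85.6), and without the one that held 49 of 61 Krt16 UMIs they had Krt16 at 41.4 (21.4 to 72.3). Krt16 was also present in the rule cells over the chondrocyte limit, at 25.5 CPM (20.6 to 31.2) and 46.8 (41.8 to 52.3). Krt14, Krt16 and Krt17 are close in sequence, as are Krt6a and Krt6b, and reads that fit more than 1 of them equally well would not have been counted.

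Krt19, a type I keratin of simple and hair epithelium, stood at 67.5 CPM (54.1 to 83.2) and 42.4 (34.9 to 50.9) in the Epcam and Trp63 cells, with 96.6% and 86.7% of its UMIs in 5 cells. Krt77 stood at 20.7 (13.6 to 30.1) and 14.6 (10.4 to 20.0). Of the 18 other keratins, 6 had no UMI in either library, among them Krt2 and the hair-sheath keratins Krt25, Krt27 and Krt71. Among the 7 with UMIs in both, the median log2 ratio was -0.50, and Krt16, Krt23 and Krt80 were past 2-fold, all higher in the library labelled f/w, where Krt23 and Krt80 rest on 2 and 3 UMIs in the other library. Of 12193 genes with UMIs in both libraries and over 3 UMIs in at least 1 of them, 16.6% were past 2-fold in either direction, and the counts for short lists here are read against that share. Over all cells of the epithelial rule, 3 of the 18 were past 2-fold higher in the library labelled f/w and 3 in the one labelled f/f. Krt4, with 2 UMIs labelled f/f and 1 labelled f/w, was given no fold.

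The neighbouring lists were compared in the same cells. A gene with at most 3 UMIs in each library was given no fold. Of 10 desmosome genes, which tie keratin filaments to cell junctions, 2 were past 2-fold, Dsc3 at 36.8 and 76.5 CPM and Dsc2 at 3 and 17 UMIs, both higher in the library labelled f/w. Of 10 hemidesmosome and basement membrane genes, which anchor Krt5 and Krt14 filaments to the matrix, 0 were past 2-fold in either direction, with a median log2 ratio of 0.28. Among the 10 suprabasal genes, 3 were past 2-fold higher in the library labelled f/w (Sbsn 52.9 and 184, Lgals7 322 and 687, Dsg1a 11.5 and 24.4 CPM). Of 8 hair placode genes 2 were past 2-fold, both higher in the library labelled f/f: Lgr4 at 36.8 and 17.2 CPM, and Shh on 12 and 10 UMIs, with an interval that holds 0 (log2 ratio -1.30, -2.67 to 0.04). Of 14 epithelial identity genes 2 were past 2-fold, Cldn3 at 71.3 and 35.6 CPM and Cldn6 at 9.20 and 4.12. The 5 richest cells labelled f/f held 96.8% of the 93 Cldn3 UMIs and 100% of the 12 Cldn6 UMIs there, so both folds describe few cells. Of 4 cycling genes 1, Ccnb1 at 59.8 and 26.2, was past 2-fold, and Top2a stood at 247 and 141. Of the 9 other intermediate filament genes, those of neurons were higher in the library labelled f/w, with Prph at 1.53 and 55.9, Nefl at 3.07 and 20.2 and Nefm at 4.60 and 15.0 CPM, while Des and Nes were lower. Of these 156 cells, 6 (3.85%) reached the neuron limit, and their part in this was not tested. Of 6 Merkel cell genes, 2 had UMIs in both libraries and over 3 in at least 1. Both were past 2-fold higher in the library labelled f/w, among them Isl1 at 3.07 and 16.1 CPM. The 5 genes other than Isl1 had at most 17 UMIs in a library. The median over all 2648 genes with at least 200 UMIs in these cells was -0.02.

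Between the libraries, 0 of the 8 keratins were past 2-fold, over all cells of the rule and over the Epcam and Trp63 cells alone. The same limit was passed by 2.10% of 7475 genes over all cells of the rule and by 2.11% of 2648 genes in the Epcam and Trp63 cells, so few genes of any kind passed it. With the mitochondrial limit at 5%, Krt17 alone passed it over all cells of the rule, with a log2 ratio of 1.03.

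The library ratios over all cells of the rule mix in the cartilage-marked cells. Krt5 had a log2 ratio of -0.05 (-0.14 to 0.03), Krt14 of 0.52 (0.46 to 0.57), Krt15 of -0.55 (-0.65 to -0.46) and Krt17 of 0.65 (0.49 to 0.82). Krt1 had 0.45 (0.23 to 0.67) and Krt10 0.56 (0.39 to 0.73). Krt18 had 0.17 (0.05 to 0.29) and Krt8 -0.12 (-0.25 to 0.01).

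The sign of most of these ratios depended on the cells or the depth taken. Krt8 went to 0.31 (0.09 to 0.54) in the Epcam and Trp63 cells. Without cells that reach another limit, Krt14 went to -0.16 and Krt8 to 0.62. Below the chondrocyte limit Krt18 went to -0.07. With each cell thinned to 2000 UMIs, Krt17 went to -0.07, Krt10 to -0.02 and Krt18 to -0.17. Krt5 lay on either side of 0, from -0.58 to 0.20. Only Krt15 and Krt1 kept their sign under all settings run, with Krt15 from -0.98 to -0.37 and Krt1 from 0.02 to 0.55.

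A second view split all cells of the rule by 10 suprabasal genes without a keratin (Krtdap, Sbsn, Lor and others), at 3 or more UMIs or at 0. All 8 keratins were past 2-fold higher in the cells with these genes, in both libraries, against 5.46% and 5.25% of all genes tested. Krt14 stood at 1591 CPM in 103 cells and 34.3 in 171 cells of the library labelled f/f, and at 1982 in 207 and 18.2 in 264 of the one labelled f/w. Of the cells at 0, 143 of 171 and 179 of 264 reached the chondrocyte limit. In the cells over that limit alone, 7 and 8 were past 2-fold, against 0.738% and 1.48% of genes with at least 200 UMIs and 10.1% and 10.2% of genes with over 3 UMIs in either group of cells. Krt1 had 1 and 2 UMIs in the library labelled f/f and was given no fold, and the Krt10 interval there held 0 (log2 ratio 1.09, -0.39 to 2.38). Below that limit 7 and 6 keratins were past 2-fold, against 6.46% and 8.23% of genes. It gave 28 cells at 0 labelled f/f and 85 labelled f/w, and Krt18 no longer differed past 2-fold in either (log2 ratios 0.11, -0.19 to 0.42, and 0.92, 0.70 to 1.14), nor Krt8 in the one labelled f/w (0.86, 0.62 to 1.11). Among the Epcam and Trp63 cells 4 and 5 keratins were past 2-fold higher with the cells at 0 set at no fewer than 3 UMIs, against 10.7% and 8.49% of genes with at least 200 UMIs and 1.30% and 1.26% of those with over 3, but only 4 and 2 cells were at 0. In the library labelled f/f Krt8 and Krt18 were past 2-fold the other way (log2 ratios -1.77, -2.37 to -1.10, and -2.66, -3.06 to -2.25).

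Cells of the rule below the chondrocyte limit but without Trp63 showed a different mix. In the library labelled f/f, 73 such cells had Krt8 at 415 CPM and Krt14 at 1037, while 66 with Trp63 had 169 and 1827. In the one labelled f/w, 212 without Trp63 had Krt8 at 241 and Krt14 at 878, and 85 with it 221 and 2839. Median depth was 11759 and 14072 UMIs without Trp63, against 16722 and 25815 with it, so this split goes with depth. Among those without Trp63, 29 of 73 and 130 of 212 stayed under 3 UMIs for both of the following keratin sums. These sums were Krt5, Krt14 and Krt15, and Krt8 plus Krt18. In a further 2 and 19 cells Krt8 plus Krt18 reached 3 UMIs while the sum of the basal 3 did not.

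Outside the rule, keratin levels were far lower, and least so for Krt10. Every one of the 8 was highest in the cells of the epithelial rule among 12 types in both libraries, as were 1.66% of 14478 genes. With the Epcam and Trp63 cells in place of the rule it was again all 8, against 3.09% of genes. Cells of the rule held 94.5% and 92.3% of all Krt5 UMIs in the libraries labelled f/f and f/w, 93.6% and 93.3% of Krt14, 89.8% and 90.2% of Krt15 and 69.8% and 83.4% of Krt17. They held 63.5% and 79.3% of Krt1, 67.3% and 88.3% of Krt8 and 50.8% and 65.2% of Krt18. For Krt10 the share was 14.2% (12.9 to 15.5) and 43.7% (41.8 to 45.6). Most Krt10 molecules thus came from other cells in both libraries.

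**Figure D3:**
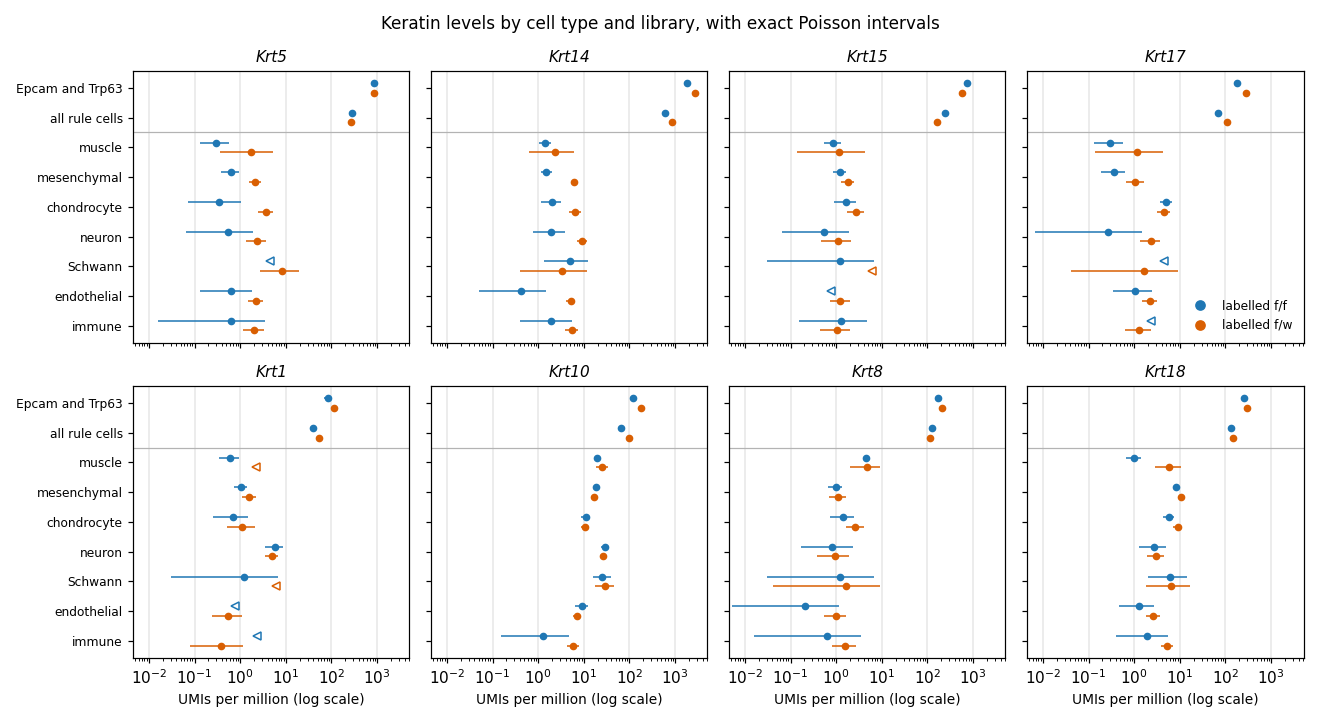
CPM (log axis, exact Poisson intervals) of the 8 keratins in the Epcam and Trp63 cells, in all cells of the epithelial rule and, below the line, in 7 other cell types, for the libraries labelled f/f (blue) and f/w (orange). Open triangles stand at the upper limit where no UMI was found. Krt10 lies near 10 to 30 in most other types, while the other keratins mostly lie below 10.

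Krt14 outside the rule was taken as a measure of background, and free RNA as its source was not tested. Outside the rule it stood at 1.41 CPM (1.02 to 1.89) in muscle, 1.51 (1.13 to 1.99) in mesenchymal cells, 1.98 (1.15 to 3.17) in chondrocytes and 1.92 (0.397 to 5.62) in immune cells of the library labelled f/f. In the library labelled f/w it was 2.35 (0.641 to 6.02), 6.25 (5.20 to 7.45), 6.48 (4.84 to 8.49) and 5.42 (3.90 to 7.32). In immune cells, which should lack it, 2.86% and 7.95% of cells had a Krt14 UMI at medians of 11875 and 14332 UMIs. Pooled over all other types, Krt5 and Krt15 followed Krt14 in the library labelled f/w. The ratio of their UMIs to those of Krt14 was 0.402 (0.331 to 0.486) and 0.255 (0.202 to 0.319), against 0.320 (0.305 to 0.335) and 0.205 (0.194 to 0.217) in the Epcam and Trp63 cells. Chondrocytes of this library lay apart, at 0.558 (0.341 to 0.895) and 0.423 (0.245 to 0.709). In its mesenchymal, neuron, endothelial and immune cells both intervals overlapped those of the Epcam and Trp63 cells. In the library labelled f/f the pooled ratios were 0.303 (0.207 to 0.435) and 0.652 (0.491 to 0.861), against 0.481 (0.447 to 0.516) and 0.411 (0.381 to 0.443), so there they were not equal. For each keratin below, its own level in immune cells is given as the background.

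Krt10 stood above its level in immune cells, 1.28 CPM (0.155 to 4.63) and 5.80 (4.23 to 7.77), in several cell types. Its UMIs over those of Krt14 were 0.0664 (0.0561 to 0.0780) in the Epcam and Trp63 cells labelled f/f, but 13.6 (9.99 to 19.0) in muscle, 12.1 (9.11 to 16.5) in mesenchymal cells and 15.1 (7.10 to 38.6) in neurons of the same library. The library labelled f/w gave 0.0661 (0.0601 to 0.0725) against 2.70 (2.20 to 3.35) in mesenchymal cells and 2.79 (2.11 to 3.74) in neurons.

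The level of Krt10 differed among the other types. It was 28.7 CPM (23.5 to 34.7) and 25.8 (22.3 to 29.7) in neurons, 25.7 (15.9 to 39.2) and 29.6 (17.5 to 46.7) in Schwann cells and 19.2 (17.6 to 20.8) and 25.3 (18.3 to 34.0) in muscle. Mesenchymal cells had 18.4 (16.9 to 19.9) and 16.9 (15.2 to 18.8). The intervals of Schwann cells overlap those of neurons and muscle in both libraries, so the place of Schwann cells is not resolved. Neurons lay above muscle with intervals apart in the library labelled f/f, and these intervals overlap in the one labelled f/w. Chondrocytes came lower, at 11 (8.86 to 13.4) and 10.7 (8.57 to 13.2), then endothelial cells at 8.97 (6.49 to 12.1) and 7.26 (5.94 to 8.79). The endothelial interval of the library labelled f/w overlaps that of its immune cells. Of 68 erythroid cells labelled f/f, 0 held a UMI, which allows a share of up to 5.28%, and the 76 labelled f/w held 2 UMIs. At 2000 UMIs per cell, 6.97% and 5.17% of neurons and 4.2% and 0.971% of muscle cells held Krt10, the last from 103 cells.

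Krt8 was also found in muscle, in the library labelled f/f with little Krt18. Muscle cells, over the limit of Pax7, Myod1 and Myog and no other, had a Krt8 UMI in 5.19% and 5.83% of cells. Krt8 stood there at 4.55 CPM (3.82 to 5.37) in the library labelled f/f and 4.70 (2.03 to 9.27) in the one labelled f/w. In immune cells it was at 0.641 (0.0162 to 3.57) and 1.55 (0.800 to 2.70), so the muscle level lay above this background in the library labelled f/f and overlapped it in the one labelled f/w. Krt18 was at 0.981 (0.662 to 1.40) in the former, and at 5.88 (2.82 to 10.8) from 10 UMIs in the latter, against 1.92 (0.397 to 5.62) and 5.29 (3.79 to 7.17) in immune cells. Only 14.4% of the 139 Krt8 UMIs labelled f/f lay in the 5 richest cells.

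Krt8 in muscle followed Myog, the factor of terminal myogenic differentiation. In the library labelled f/f, 991 cells with 3 or more Myog UMIs held 130 Krt8 UMIs, or 8.88 CPM (7.42 to 10.5). The 649 cells with Pax7, a marker of muscle progenitors, and no Myog held 9, or 0.862 (0.394 to 1.64), so the ratio was 10.3-fold, a log2 ratio of 3.36 (2.40 to 4.53). Median depths were 13840 and 15364 UMIs, the deeper group being the one with less Krt8. In this contrast 6.11% of 9324 genes were past 2-fold higher. Krt18 and Krt1 went the same way on few counts, 20 against 2 UMIs (log2 ratio 2.83, 0.79 to 5.98) and 11 against 1 (2.97, 0.19 to 8.40). These UMIs lay in 1.72% (Krt18) and 0.404% (Krt1) of the 991 Myog cells. Over all muscle cells labelled f/f, the 5 richest held 36.7% of Krt18 and 83.3% of Krt1 UMIs, so the Krt1 ratio describes few cells. Krt10 stood at 22.4 CPM (20.0 to 25.0) and 15.7 (13.4 to 18.3), a log2 ratio of 0.51 (0.24 to 0.79). For Krt14 the interval held 0, at 0.46 (-0.57 to 1.55).

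The library labelled f/w had too few muscle cells for this contrast. Its 56 cells with Myog held 8 Krt8 UMIs, or 8.74 CPM (3.77 to 17.2), and its 28 Pax7 cells without Myog held 0, which allows up to 8.17. Krt18 had 4 UMIs in each of these groups (log2 ratio -1.02, -3.44 to 1.41). By cycling genes (Mki67, Top2a, Ccnb1 and Cdk1), muscle cells labelled f/f with none had Krt8 at 12.1 CPM (9.21 to 15.7) and those with 3 or more UMIs at 1.67 (1.15 to 2.33).

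**Figure D4:**
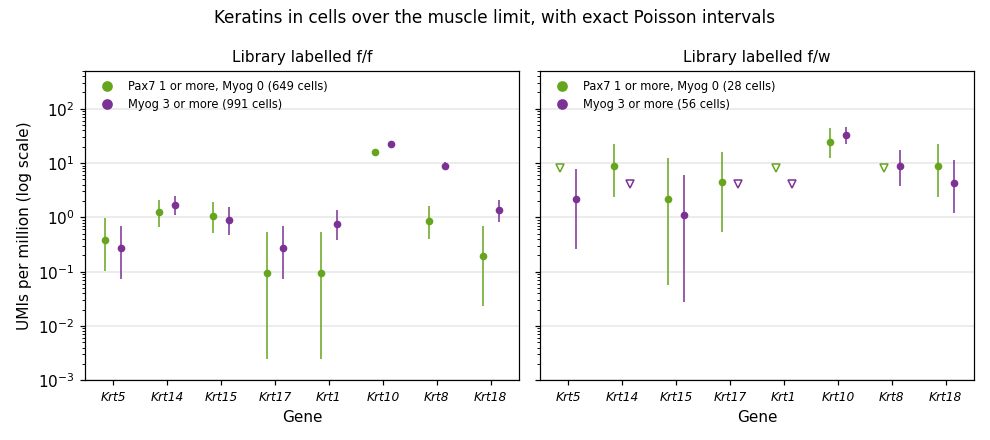
CPM (log axis, exact Poisson intervals) of the 8 keratins in cells over the muscle limit and no other, split into those with Pax7 and no Myog (green) and those with 3 or more Myog UMIs (purple), in the libraries labelled f/f (left) and f/w (right). Open triangles stand at the upper limit where no UMI was found. In the left panel Krt8 stands at 0.862 and 8.88, while Krt5, Krt14 and Krt15 overlap between the 2 groups.

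Krt18 in mesenchymal cells came without Krt8. It stood at 8.10 CPM (7.16 to 9.12) and 10.7 (9.32 to 12.2), against 0.979 (0.674 to 1.37) and 1.10 (0.690 to 1.67) for Krt8. The mesenchymal Krt18 lay above that of immune cells in both libraries. The 5 richest mesenchymal cells of each library held 28.2% and 25.7% of its UMIs, and the level without them was not tested. Chondrocytes had Krt18 at 5.71 (4.23 to 7.55) and 9.09 (7.13 to 11.4), which overlaps the immune level, and Krt8 at 1.40 (0.723 to 2.44) and 2.62 (1.62 to 4). Summed over all their cells, muscle of the library labelled f/f and mesenchymal cells thus held opposite members of the pair.

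Krt17 in chondrocytes and Krt1 in neurons stood above their levels in mesenchymal and immune cells. Krt17 stood at 5.01 CPM (3.63 to 6.75) and 4.48 (3.14 to 6.21) in chondrocytes, against 0.356 (0.184 to 0.622) and 1.05 (0.650 to 1.61) in mesenchymal cells. The 5 richest chondrocytes of each library held 41.9% and 38.9% of the Krt17 UMIs, and the level without them was not tested. Krt17 UMIs were 2.53 times those of Krt14 in chondrocytes labelled f/f and 0.0997 times in the Epcam and Trp63 cells. Krt1 stood at 5.69 (3.52 to 8.70) and 4.89 (3.42 to 6.77) in neurons, against 1.04 (0.723 to 1.44) and 1.60 (1.09 to 2.26) in mesenchymal cells. The 5 richest neurons of each library held 42.9% and 16.7% of the Krt1 UMIs. In immune cells Krt17 had 0 UMIs in the library labelled f/f, which allows up to 2.36 CPM. Krt17 had 1.29 CPM (0.618 to 2.37) in the one labelled f/w. Krt1 had 0 UMIs in immune cells labelled f/f and 0.387 CPM (0.0798 to 1.13) in those labelled f/w. Other types of the library labelled f/w were not apart from these: Krt17 stood at 2.31 (1.34 to 3.70) in neurons, an interval that overlaps the chondrocyte one, and Krt1 at 10.0 (1.21 to 36.2) from 2 UMIs in 26 neural progenitors.

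Cells outside the rule with 10 or more UMIs of Krt8 plus Krt18 numbered 17, 8 labelled f/f and 9 labelled f/w. Their Krt19 was at 401 CPM, against 2.20 in the other cells outside the rule, and Wt1, a factor of mesothelium and kidney, at 92.6 against 1.94. Upk3b, a mesothelial gene, had 43 UMIs in 6 of the 17, and the fibroblast gene Dcn 227 in 13. Trp63 had 0 UMIs in all 17. Cells outside the rule with 10 or more UMIs of Krt5, Krt14 and Krt15 numbered 2, both labelled f/w.

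Likeness of pattern was taken over the 12 types and 2 libraries. Pearson correlations of log2(CPM + 1) over these 24 points, which share libraries and depth, put Ifi202b (0.954) first for Krt14 and S100a14 (0.955) first for Krt15. For Krt17 it was Perp (0.943), which the rule used. Krt10 had its closest gene in Fam135a, at 0.843, and reached 0.527 with Krt14 and 0.635 with Krt1, its partner.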

How the data were processed

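Single-cell RNA of tdT-sorted E14 cells was measured in 2 libraries, 1 per genotype. The authors mapped reads to mm10 and counted UMIs per gene with Cell Ranger (5.0.0 in the study's methods, 3.1.0 in the submitters' processing notes), and aggregated the libraries. The deposited values are counts, whole UMIs for 32285 genes. Barcode suffixes were matched to libraries by the numbers of cells in the deposited summaries, and 0 value columns stayed unmapped.

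Cells more than 2 SD from their library's mean on a log10 scale, in UMIs or in detected genes, were left out, as were those over 10% mitochondrial. A cell outside the epithelial rule took a type when it reached exactly 1 marker limit. No doublet caller was run, and no cell annotation by the authors was used. UMIs were summed per type and library (Python 3.11.15, NumPy 2.4.6, SciPy 1.17.1, pandas 2.3.3, matplotlib 3.10.9). Intervals are 95% exact (Poisson, Clopper-Pearson, or the binomial split of the counts for ratios). Their calculation was tested on simulated Poisson and binomial counts, which leave out the spread between cells. A gene entered a background at 200 UMIs (100 in muscle) or, in shares added after the data were seen, at over 3 UMIs. The genes named are the members, the fixed lists, the 3 genes most like each member, and leading genes of cells chosen as the text says. Coordinates come from GENCODE (GRCm38), which lists 32158 of the gene IDs (99.6%). The members and lists were chosen with earlier results of these data known. Keratin classes by pairs, the Epcam and Trp63 cells and the chondrocyte split were added after the data were seen. The closest genes of Krt5 and Krt8 by pattern are not reported here.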

Additional observations from a re-analysis of the deposited data

How the results depend on the processing

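All 8 keratins were highest in the cells called epithelial under every other setting run, of which 2 (the chondrocyte limit, and both Epcam and Trp63) were chosen after the data were seen. The share of cells called epithelial, 2.85% in the library labelled f/f and 6.44% in the one labelled f/w, moved with the limits: 2.44% and 5.69% with no limits on cells, 4.78% and 9.92% at 2 UMIs, 1.53% and 3.62% at 5 UMIs, 0.599% and 1.29% without cells that reach another limit, 1.11% and 2.87% without those that reach the chondrocyte limit and 0.511% and 0.889% with both Epcam and Trp63. The keratin UMIs in these cells, 68.2% and 83.5% of all, became 69.4% and 84.6% at 2 UMIs, 66.8% and 82.6% at 5 UMIs, 30.5% and 26.6% without cells that reach another limit, 64.2% and 76.0% without the chondrocyte limit, 40.7% and 52.4% with both Epcam and Trp63, and 64.8% in the library labelled f/f at a mitochondrial limit of 5%. Keratins past 2-fold between libraries numbered 0, and 1 at that limit of 5%. Keratins past 2-fold higher in cells with suprabasal genes numbered 8 in each library, 6 and 6 without cells that reach another limit, and 4 and 5 with both Epcam and Trp63, where 4 and 2 cells carried none of those genes. Of 80 single ratios between libraries under the alternatives, 50 lay outside the main interval, 15 had another sign and 1 was past 2-fold. The cause was not tested. No paired analysis was possible because each group has 1 library. Depth limits the keratins of few UMIs outside epithelium, such as Krt8 in muscle of the library labelled f/w (8 UMIs).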
